A study of Mus musculus with 20 samples.

Results

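Low GPS2 peaks of brown adipose tissue (BAT) that coincided with a GPS2 peak of the cell line 3T3-L1 were examined, 2818 regions in all out of 58371 autosomal BAT peaks. They were selected on measured values. A peak of the female or the male BAT list counted when it lay on chromosomes 1 to 19, was below 15 normalized tags, shared at least 1 bp with a peak of untreated or FCCP-treated 3T3-L1 cells, and shared none with a peak of the other BAT list. Normalized tags are the sequenced fragments of a peak scaled to a library of 10000000. There were 918 such regions in the female list and 1900 in the male list, and each was classed by whether the untreated list, the FCCP list or both met it. Since the overlap chose them, the shares and heights below describe the lists, and no p-value is attached to them.

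GPS2 peak lists belonging to 4 of the 20 samples were analysed. The BAT came from wild-type mice, 1 library labelled female and 1 labelled male, on a mixed 129sv/C57BL6J background. Each was called against the GPS2 library of a knockout of the same labelled sex, in which Adipoq-Cre, driven by the adiponectin promoter, removes floxed Gps2 from adipocytes. Other cells of the tissue keep the gene in that knockout. The protocol text in the labels speaks of male mice throughout, so the label of the female list is at odds with it. The sources used here give no ages. The 3T3-L1 cells, a mouse preadipocyte line, were without treatment or treated with FCCP, a compound that uncouples mitochondrial respiration; each list was called on 2 pooled libraries without a control, and the sources used here give neither dose nor time. With 1 list per condition, nothing here has a replicate check.

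GPS2 is a small subunit of the NCoR and SMRT corepressor complexes, which bind chromatin through transcription factors and hold histone deacetylase activity there. It also has roles outside the nucleus, in inflammatory signalling and at mitochondria, from where it can move to the nucleus when mitochondria are stressed. Brown adipocytes are rich in mitochondria and burn fuel for heat, while 3T3-L1 cells are of the white fat lineage and can be induced to differentiate. A peak list alone does not show which protein complex sits at a site.

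Of the 17209 female peaks that could have qualified, 918 met a 3T3-L1 peak (5.33%, Wilson 95% interval 5.01 to 5.68). Of the 38187 male peaks it was 1900 (4.98%, 4.76 to 5.20). These intervals take each peak as independent and hold no error other than that of counting. In the female list 321 regions were met by the untreated list alone, 381 by the FCCP list alone and 216 by both. In the male list the numbers were 619, 783 and 498. The order of the classes was thus the same in both BAT lists. The class met by both cell lists took 23.5% (20.9 to 26.4) of the female and 26.2% (24.3 to 28.2) of the male regions.

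The FCCP list is the longer of the cell lists, with 57169 autosomal peaks against 42486, so the larger FCCP class is read against that length. The female regions met 1.26% of all untreated peaks and 1.04% of all FCCP peaks, and the male regions met 2.63% and 2.24%. Per peak of the cell lists, the untreated list was therefore met slightly more often by the regions of both BAT lists. The cell lists share peaks and both comparisons use the same BAT lists, so this is not independent support.

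Regions met by 1 cell list were met by the other at shares close to or somewhat above those of cell peaks in general. Over all autosomes, 30.7% of FCCP peaks overlapped an untreated peak. Among regions met by the FCCP list, 36.2% (32.4 to 40.1) of the female and 38.9% (36.2 to 41.6) of the male ones were also met by the untreated list. From the other side, 41.3% of untreated peaks overlapped an FCCP peak, against 40.2% (36.2 to 44.4) of the female and 44.6% (41.7 to 47.5) of the male regions met by the untreated list. The first of these shares lay above its background in both BAT lists, and the second did so in males only, by a small margin. These backgrounds compare cell peaks with each other. Cell peaks are wider than BAT peaks, and the backgrounds were not matched for height. A BAT peak can meet 2 cell peaks that do not touch each other, but this was rare: the FCCP and untreated partner overlapped at 215 of 216 female and 495 of 498 male regions.

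The rule asked for a single shared base pair, and most regions shared far more than that with their partner. The peak sizes in the file headers are 138 bp in females, 135 bp in males, 264 bp in the untreated and 261 bp in the FCCP list; read as closed intervals, the female peaks span 139 bp and the male ones 135 bp. The median distance between the centres of a female region and its partner was 60.0 bp in the untreated and 61.0 bp in the FCCP list. For male regions it was 62.0 and 60.0 bp. The median overlap was 139 bp in females and 135 bp in males in either cell list, which is the whole BAT peak. The lower quartile was 94.0 bp (untreated) and 91.0 bp (FCCP) in females and 93.0 and 90.0 bp in males. By class, the median fell short of the whole peak in females met by FCCP alone (137 bp) and, for the untreated partner, in females met by both lists (134.5 bp).

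The same closeness is seen when the requirement of overlap is dropped. Among all eligible female peaks, 387 untreated centres lay within 100 bp, against a mean of 39.6 per 100 bp at distances of 500 to 1000 bp. That is a ratio of 9.77 (exact 95% interval from the pair counts 8.21 to 11.7). For FCCP centres it was 426 against 54.8, a ratio of 7.77 (6.66 to 9.08). Among eligible male peaks the ratios were 10.7 (9.41 to 12.1) for untreated and 8.73 (7.83 to 9.74) for FCCP centres. The number of pairs fell steeply up to about 300 bp and was flat beyond. Peaks of 1 cell list keep a distance of at least 528 (untreated) or 522 bp (FCCP) from each other, per the file headers.

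**Figure D1:**
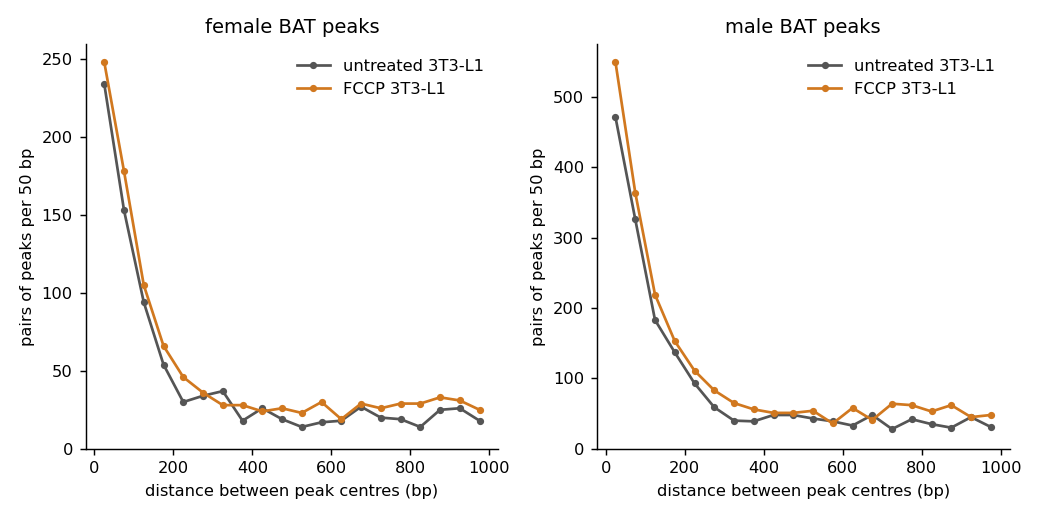
Number of pairs of an eligible BAT peak and a 3T3-L1 peak (y axis, pairs per 50 bp) by the distance between their centres (x axis, bp), for female (left) and male (right) BAT and for the untreated (grey) and FCCP (orange) lists. In females the first 50 bp hold 234 untreated and 248 FCCP pairs, and in males 471 and 549; all 4 curves flatten beyond about 300 bp.

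In height the regions were like other low BAT peaks. The median female region held 3.31 normalized tags (quartiles 2.80 and 3.82), which equals that of the 16291 eligible female peaks without a cell partner (3.31, 2.80 and 3.82). The median male region held 4.32 (3.33 and 5.65), against 4.32 (3.66 and 5.32) for the 36287 others. Either median is 13.0 sequenced tags, for which counting error alone is 27.7% of the height. Regions met by both cell lists were somewhat taller, with medians of 3.56 in females and 4.66 in males, while those met by FCCP alone had 3.05 and 3.99 and those met by the untreated list alone 3.05 and 4.32.

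The regions stood out more against their surroundings. The fold over the local region, the tags of a peak relative to those expected from the surrounding 10000 bp, had a median of 7.73 (quartiles 6.24 and 9.71) in female regions and 5.20 (4.42 and 6.54) in the other female peaks. In males the medians were 9.33 (7.22 and 12.2) and 5.94 (4.85 and 7.65). A local fold of at least 8 was reached by 416 of 918 female regions (45.3%), where 14.3% of all eligible female peaks reached it. In males it was 1243 of 1900 (65.4%), against a background of 24% of eligible peaks. Within the regions, those met by both cell lists reached this fold most often, at 60.6% (54.0 to 66.9) in females and 73.1% (69.0 to 76.8) in males, and those met by FCCP alone least often, at 35.2% (30.5 to 40.1) and 59.1% (55.7 to 62.5).

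Since heights were alike, the difference lay in the surroundings. The local level, the normalized tags that the surroundings would give over the width of a peak, was 0.427 at the median female region and 0.626 at the median of the other female peaks, and 0.446 and 0.714 in males. Of the 10% of female peaks with the lowest local level, 14.8% (13.2 to 16.5) met a cell peak, and of the 10% with the highest level 0.407% (0.197 to 0.838). In males these shares were 15.3% (14.2 to 16.5) and 0.655% (0.444 to 0.965). By fold over the local region, the share rose from 0.116% in the lowest 10% of peaks to 18.4% in the highest 10% in females, and from 0.209% to 18.5% in males.

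The cell lists themselves carried a rule on the surroundings: each of their peaks is at least 4-fold over its local region, where BAT peaks need 2-fold. Local levels of a region and of its cell partner moved together, with Spearman's rho of 0.714 (untreated, n = 537) and 0.594 (FCCP, n = 597) over female and 0.654 (n = 1117) and 0.589 (n = 1281) over male regions. These are descriptions over regions, which share their libraries and the mappability of the genome. What part the local rule plays in the choice of these regions was not tested. The closeness of centres was seen at both levels of background: with a local level at or above the median, the ratio of near to far pairs in the untreated list was 7.38 (4.91 to 11.2) in females and 8.68 (6.62 to 11.4) in males, and below the median 10.4 (8.58 to 12.7) and 11.3 (9.78 to 13.0). In the FCCP list it was 6.25 (4.44 to 8.82) and 6.56 (5.15 to 8.37) at or above the median, and 8.24 (6.92 to 9.83) and 9.39 (8.31 to 10.6) below it.

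At a given local level, the tallest peaks met the cell lists most often. Among the female peaks of the lowest local level (1 part in 3), the share was 8.63% for the lowest, 9.21% for the middle and 15.3% for the tallest peaks. At the middle level the shares were 1.46%, 2.09% and 7.06%, and at the highest level 0.418%, 0.628% and 3.19%. Male peaks gave 8.98%, 7.87% and 13.6% at the lowest level, 1.60%, 2.00% and 6.67% at the middle and 0.471%, 0.801% and 2.78% at the highest. The tallest peaks had the highest share at each of these 3 levels in both BAT lists, with Wilson intervals apart from those of the lower peaks. Without regard to the level, the share was high at both ends of the height range. It was 7.79% in the lowest, 3.83% in the eighth and 8.02% in the highest of 10 equal groups of female peaks. In males it was 9.09% in the lowest, 3.40% in the fifth and 7.83% in the highest group. Many peaks have the same height, and such peaks were divided between groups by genome position. Groups that share a height therefore also differ in chromosome.

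**Figure D2:**
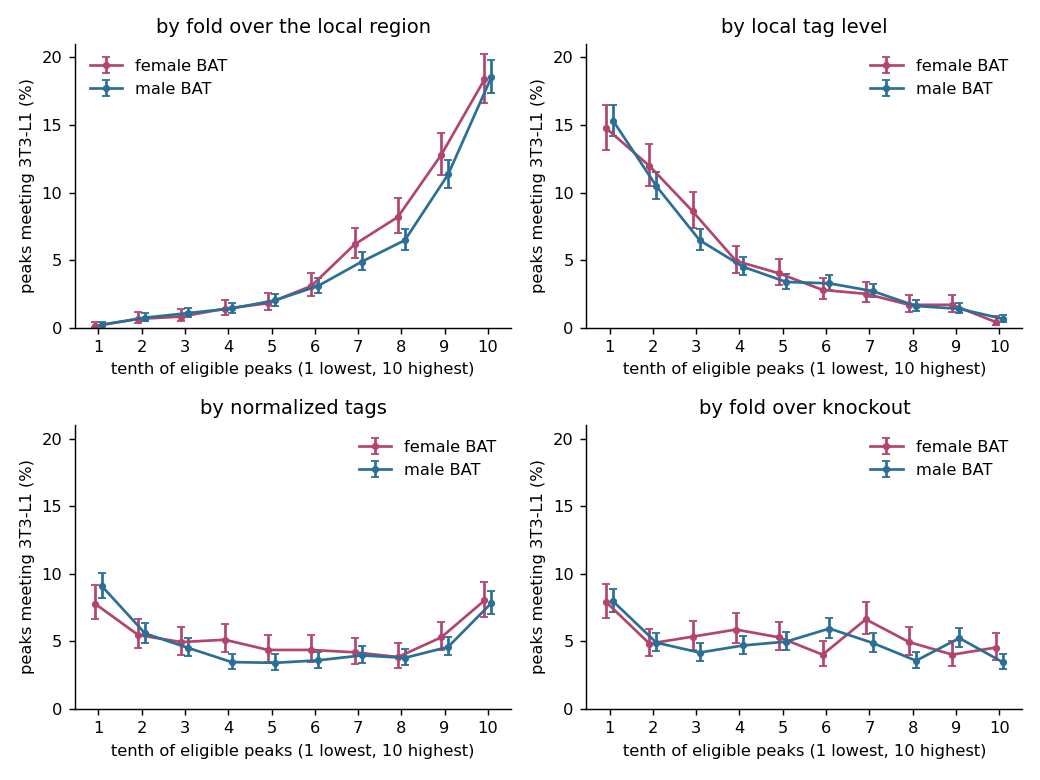
Share of eligible BAT peaks that met a 3T3-L1 peak (y axis, percent, with Wilson 95% intervals) in 10 equal groups of peaks (x axis) ordered by fold over the local region, local tag level, normalized tags and fold over knockout, for female and male BAT. By fold over the local region the female share climbs from 0.116% to 18.4% and the male share from 0.209% to 18.5%; by fold over knockout the shares in the lowest group are 7.90% and 7.96%.

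Against the knockout library the regions were not better separated than other peaks. The median fold over knockout was 5.55 (quartiles 4.40 and 9.26) in female regions and 6.02 (4.94 and 10.2) in the others, and 5.41 (3.92 and 7.37) and 5.53 (4.42 and 8.11) in males. Regions met by both cell lists had the lowest medians, 5.09 in females and 4.91 in males, and those met by FCCP alone the highest, 6.02 and 5.90. No knockout tag at all was found at 74 of 918 female regions (8.06%, 6.47 to 10.0), where 9.28% of all eligible female peaks had none. In males it was 52 of 1900 (2.74%, 2.09 to 3.57), against 3.51%. In the class met by both lists it was 12 of 216 in females and 10 of 498 in males.

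The 10% of eligible peaks with the lowest fold over knockout met the cell lists most often, at 7.90% (6.72 to 9.27) in females and 7.96% (7.14 to 8.86) in males, against 4.53% (3.65 to 5.62) and 3.46% (2.92 to 4.09) in the 10% with the highest fold. The closeness of centres went the same way, with a smaller contrast in the FCCP list. In the untreated list the ratio of near to far pairs was 14.1 (10.8 to 18.4) for female peaks below the median fold over knockout and 6.86 (5.38 to 8.78) for those at or above it. In males the ratios were 16.1 (13.2 to 19.7) and 7.69 (6.52 to 9.07). In the FCCP list they were 9.05 (7.22 to 11.4) and 6.76 (5.46 to 8.39) in females, with intervals that overlap, and 11.7 (9.87 to 14.0) and 7.04 (6.11 to 8.13) in males. Part of these contrasts lay in the far pairs. Near FCCP pairs per 1000 peaks were 26.2 and 23.4 in females and 25.6 and 22.5 in males. Far ones, per 100 bp, were 2.90 and 3.46, and 2.18 and 3.20. Near untreated pairs were 26.9 and 18.3, and 24.7 and 17.8. Far ones were 1.91 and 2.67, and 1.53 and 2.31. Peaks without a knockout tag still had 25 female and 17 male untreated centres within 100 bp, with ratios of 5.43 (2.96 to 10.0) and 5.00 (2.40 to 10.4). For FCCP centres the ratios at such peaks were 6.13 (3.71 to 10.2) and 3.79 (2.16 to 6.57). Coincidence with cell peaks was thus most frequent where the fold over knockout was lowest, and it was also seen where the knockout library had no tag. The groups by fold were not matched for height. Regions met by both cell lists had the lowest median folds and also the greatest median heights, 3.56 normalized tags in females and 4.66 in males. How far the contrast by fold goes with height was not tested. The cell lists had no such control, and signal that does not come from GPS2 was not tested for in them.

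**Figure D3:**
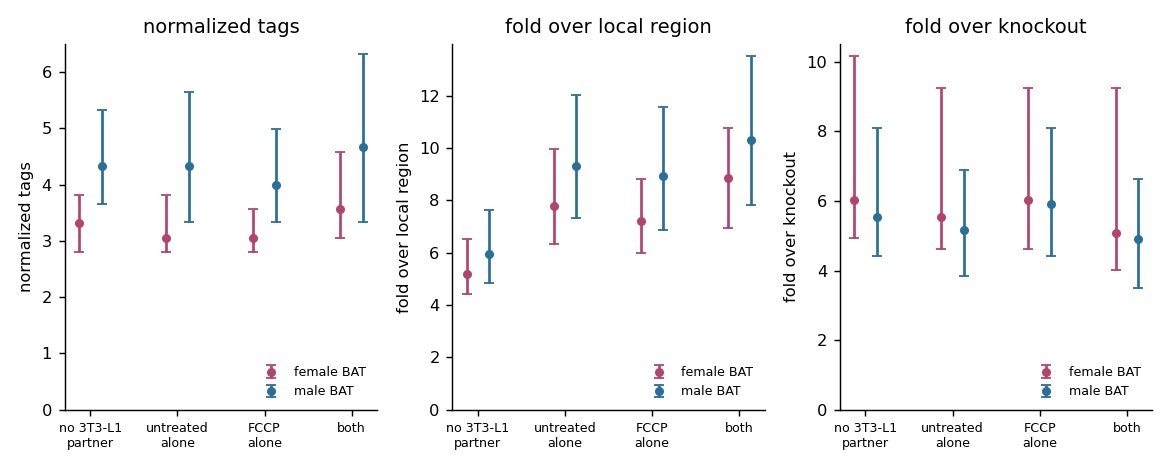
Normalized tags, fold over the local region and fold over knockout (y axes; points are medians and bars run from the lower to the upper quartile) of eligible BAT peaks without a 3T3-L1 partner and of regions met by the untreated list alone, FCCP alone or both. The local fold is higher in all 3 classes than in peaks without a partner, while the fold over knockout is lowest in the class met by both lists, with medians of 5.09 in females and 4.91 in males.

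On the side of the cells, the partners were a little above the usual height. Untreated partners had a median of 4.30 normalized tags at female and 4.43 at male regions, against 4.03 for all autosomal untreated peaks. FCCP partners had 4.18 and 4.48, against 4.03. Taller cell peaks were met more often: 2.31% of the lowest 10% of untreated peaks met a region of either BAT list and 7.84% of the highest 10%. In the FCCP list these shares were 2.10% and 5.81%. Over regions, the height in BAT and in cells went together weakly, with Spearman's rho of 0.398 (untreated) and 0.282 (FCCP) in females and 0.405 and 0.317 in males, over the same numbers of regions as above.

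At the regions met by both cell lists, the heights of the cell peaks were nearly equal with and without FCCP. This class requires a called peak in each cell list, and regions called in 1 list alone fall outside it. A ratio near 1 is therefore favoured by the choice of regions, here and for all overlapping pairs, and is no measure of the response to FCCP. The median log2 ratio of FCCP to untreated normalized tags was 0.02 (quartiles -0.15 and 0.20) at the 216 female and 0.04 (-0.13 and 0.21) at the 498 male regions. Over all 17539 overlapping autosomal pairs of the cell lists it was 0.07 (-0.09 and 0.25). FCCP was the higher at 53.2% of the female and 54.6% of the male regions, and at 60.6% of all pairs. The ratio ran from -0.70 to 0.85 over female and from -0.82 to 1.01 over male regions.

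**Figure D4:**
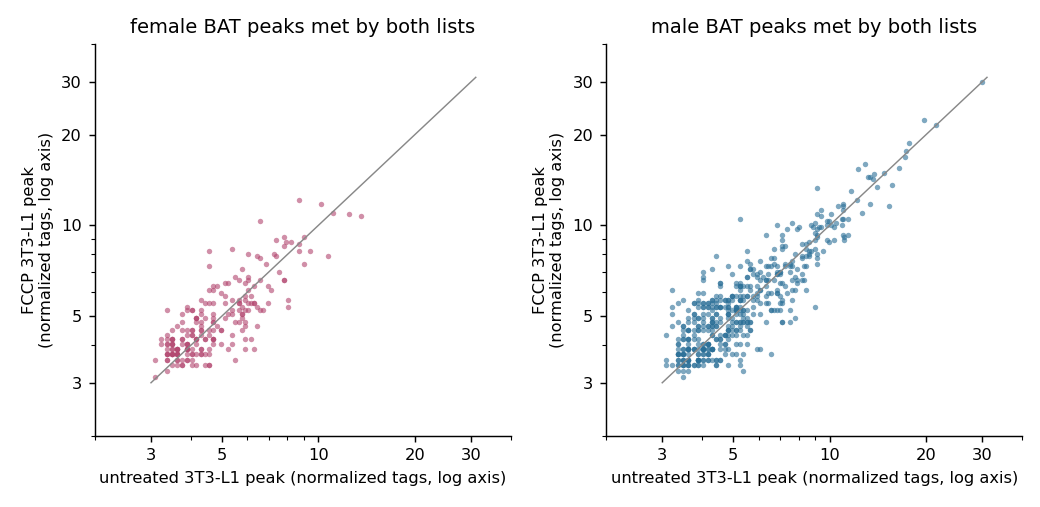
Height of the FCCP peak (y axis) against that of the untreated peak (x axis), both in normalized tags on log axes, at the 216 female and 498 male regions met by both 3T3-L1 lists; each point is a region and the line marks equal heights. The points scatter about the line, with median log2 ratios of 0.02 and 0.04.

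The tallest female region met by both cell lists, at chr2:49274072-49274210, had 12.5 normalized tags (exact 95% interval 9.22 to 16.5) and 15.1-fold over knockout, with 3 knockout tags. Its cell partners had 5.50 without and 3.58 with FCCP, a ratio of 0.651 (0.376 to 1.10). The next, at chr1:16328166-16328304, had 11.7 normalized tags but only 3.04-fold over knockout, and partners of 5.10 and 5.52. The region at chr5:22681175-22681313 had 10.4 normalized tags, 2.11-fold over a knockout library that held 18 tags there, and the tallest partners of the 3, 11.1 without and 11.0 with FCCP (ratio 0.991, 0.715 to 1.37). Among these 3, height in BAT and fold over knockout thus fell in the same order. The tallest cell partners were at the region with the lowest values of both. The interval of the FCCP ratio included 1 at each of them.

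In males the tallest region of this class, at chr2:112324265-112324399, had 14.3 normalized tags (10.3 to 19.3), 3.96-fold over knockout, with partners of 9.13 and 9.70 (ratio 1.06, 0.745 to 1.52). The region at chr11:54634781-54634915 had 14.0 normalized tags, 4.76-fold over knockout, with partners of 6.31 and 6.57. At chr7:28751145-28751279 there were 13.6 normalized tags, 2.88-fold over knockout, with partners of 9.13 and 9.11, whose centres lay 3 and 13 bp from that of the BAT peak. All 3 male regions stood at least 11.4-fold over their surroundings.

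The regions of this class with the highest fold over knockout were lower than these. In females the one at chr7:110874307-110874445 had 8.14 normalized tags (5.57 to 11.5) against 1 knockout tag, a fold of 29.6, and partners of 4.70 and 4.18, each 17 bp away. A male peak of 9.98 normalized tags lay 347 bp from it. The regions at chr2:101466225-101466363 (4.07 normalized tags) and chr16:24221601-24221739 (3.31) had no knockout tag, so that their deposited folds of 29.6 and 24.1 rest on a value of 0.5 written for none and are no measured ratios. A male peak of 5.32 normalized tags lay 811 bp from the chromosome 2 region.

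In males the highest fold of this class was at chr14:30438386-30438520, with 6.65 normalized tags (4.06 to 10.3) and 0.7 scaled knockout tags, a fold of 29.5, and partners of 3.89 and 3.58. At chr7:3002611-3002745 and chr9:4147140-4147274 the knockout held no tag, and the heights were 3.33 and 2.99 normalized tags, 10 and 9 sequenced tags. The first of these stood 21.5-fold over its surroundings, with partners of 4.30 and 5.23, and the other 12.2-fold, with partners of 5.37 and 5.82.

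Among the regions met by the untreated list alone, the tallest female one, at chr9:25002138-25002276, was also the tallest female region of all. It had 14.8 normalized tags (11.2 to 19.1), 26.8-fold over knockout with 2 knockout tags, and stood 23.8-fold over its surroundings. Its untreated partner had 7.38 normalized tags, 18 bp away and 11.0-fold over its own surroundings, and a male peak of 6.98 lay 766 bp off. The next, at chr11:87264850-87264988, had 7.89 normalized tags at 2.87-fold over knockout, with a partner of 8.32. In males the tallest were at chr14:119674467-119674601 (14.0 normalized tags, 2.13-fold over knockout, partner 4.70) and chr18:75605787-75605921 (12.6, 3.11-fold, partner 5.64). Of these 4 regions, the first female one alone was more than 4-fold over knockout.

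Regions met by FCCP alone had the lowest top heights of the 3 classes in females. The tallest were at chr9:86394502-86394640, with 7.12 normalized tags (4.73 to 10.3), 5.18-fold over knockout and a partner of 5.52, and at chr12:34256495-34256633, with 6.61, 4.01-fold and a partner of 5.37. In males they were at chr9:50675959-50676093, with 13.0 normalized tags (9.22 to 17.7), 2.56-fold over knockout and a partner of 6.27, and at chr11:118257812-118257946, with 12.3, 2.48-fold and a partner of 8.66. A female peak of 6.87 normalized tags lay 202 bp from the male chromosome 9 region, centre to centre, without touching it.

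Among peaks that met a cell peak, the limit of 15 normalized tags did not part those next to it beyond counting error. In females the tallest regions inside it had 14.8 and 12.5 normalized tags, and the lowest peaks just outside, at chr2:32274128-32274266 and chr1:46798051-46798189, had 17.0 and 18.1. In males the tallest regions inside had 14.3 and 14.0, and the lowest such peaks outside, both on chromosome 4, 15.3 and 15.6. Eligible male peaks without a cell partner reached 14.6. Of the 87 female peaks at or above the limit without a male partner, 75 met a cell peak, 73 of them in both cell lists; in males it was 8 of 36, 3 of them in both. These taller peaks form no part of the regions described.

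The regions were defined as absent from the other BAT list, and few had a near miss there. A peak of the male list lay within 1000 bp, centre to centre, of 54 of 918 female regions (5.88%, 4.54 to 7.60), and of 9.02% (8.59 to 9.47) of the other eligible female peaks. For male regions and the female list it was 62 of 1900 (3.26%, 2.55 to 4.16), against 4.46% (4.25 to 4.67). At 1000 bp the regions thus had fewer peaks of the other BAT list than other peaks had. Within 500 bp it was 31 female regions (3.38%, 2.39 to 4.75), against 4.79% (4.47 to 5.13), with intervals that overlap. In males it was 42 regions (2.21%, 1.64 to 2.97), against 2.24% (2.09 to 2.40), so that the shares were nearly equal. The overlaps that the rule left out went the other way, by a margin within the intervals in females: among all peaks below the limit, 9.29% (7.65 to 11.2) of female peaks with a cell partner touched a male peak, against 7.43% (7.05 to 7.83) of those without, and in males 4.52% (3.69 to 5.53) against 3.44% (3.26 to 3.63).

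In a few places a female and a male region sat side by side on 1 cell peak. There were 7 untreated peaks met by both a female and a male region, among 537 met by a female and 1116 by a male one. For FCCP peaks it was 9, among 597 and 1280. The rule left out 94 female and 90 male peaks below the limit that met both a cell peak and the other BAT list. These counts are therefore low by construction. At chromosome 11 a female region at 61224137 to 61224275 (5.60 normalized tags, 5.09-fold over knockout) and a male region at 61224279 to 61224413 (11.3, 4.56-fold) lay 140 bp apart, centre to centre, and both met an untreated peak of 6.58 and an FCCP peak of 5.23. At chromosome 2 a female region at 134415524 to 134415662 (3.31, 4.01-fold) and a male one at 134415668 to 134415802 (9.64, 4.75-fold) lay 142 bp apart, on an untreated peak of 4.70 and an FCCP peak of 4.03. In either place the BAT peaks miss each other by a few base pairs, and the rule counts them as separate.

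The regions were spread over all 19 autosomes. In females the share of eligible peaks that met a cell peak ran from 1.73% (1.01 to 2.93) on chromosome 12, with 13 regions, to 7.83% (6.49 to 9.42) on chromosome 1, with 101. In males it ran from 2.35% (1.81 to 3.06) on chromosome 4, with 54 regions, to 7.07% (6.06 to 8.23) on chromosome 3, with 152. Chromosomes 1, 3, 6, 10 and 16 were above 6% in both BAT lists, and chromosomes 4, 7, 11, 12, 14, 17, 18 and 19 below 5%. Over the 19 chromosomes the female and male shares went together (Spearman's rho 0.818, Pearson's r 0.811). The share also went with the part of each chromosome that cell peaks cover, from 0.508% on chromosome 12 to 1.33% on chromosome 1 (rho 0.765 in females and 0.633 in males). The points share the cell lists, so these values are descriptions.

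**Figure D5:**
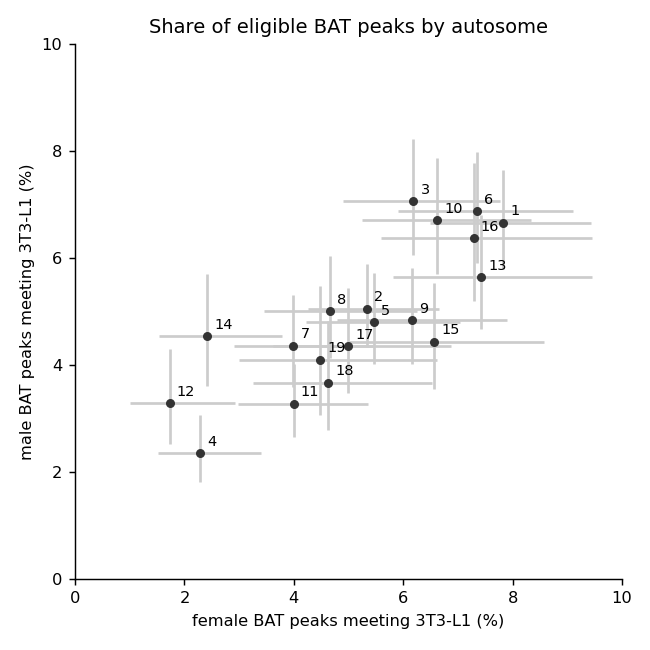
Share of eligible BAT peaks that met a 3T3-L1 peak on each autosome (numbered points), in males (y axis, percent) against females (x axis, percent), with Wilson 95% intervals. Chromosome 4 is low in both BAT lists and chromosomes 1, 3, 6, 10 and 16 are above 6% in both. Spearman's rho is 0.818.

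The megabase with the most regions, chromosome 2 from 134 to 135 Mb, held 4 female and 6 male ones, among them the adjoining pair above. The next were chromosome 6 from 17 to 18 Mb (3 and 6) and chromosome 10 from 20 to 21 Mb (2 and 7). These windows were picked for their counts, and the eligible and cell peaks in them were not set beside the regions. The counts are therefore no shares and show no concentration of shared peaks. The stretch of chromosome 1 from 140 to 150 Mb held 8 female regions among 35 eligible peaks (22.9%, 12.1 to 39.0) and 16 male ones among 71 (22.5%, 14.4 to 33.5). It thus held few of the regions, and the shares without it were 5.30% and 4.94%. The stretch was picked after values had been seen, and the density of cell peaks in it was not set beside its shares. They are therefore no finding about its BAT peaks.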

How the data were processed

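The submitters' processing notes name Bowtie2, HOMER and mm8, and give no versions. Per the file headers, each BAT list holds peaks of 1 wild-type library (39310667 tags in females, 30069322 in males) over the knockout library of that sex, at a false discovery threshold of 0.05, with 2-fold required over knockout and over the local region. Each 3T3-L1 list pools 2 libraries (74504840 tags untreated, 66979291 with FCCP), has no control, and required a threshold of 0.001 and 4-fold over the local region.

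Normalized tags and knockout tags are signal values as deposited, scaled by the authors except for the female knockout tags. Where the knockout had no tag, 0.5 is written in the female and a scaled 0.3 in the male list. The deposited folds are ratios, and the deposited score was used to rank peaks. Sequenced tags were recovered from normalized tags and the library totals in the headers. The deposited column of tag counts per male peak and the focus ratio, a fraction, support no statement in the text.

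Peaks on chromosomes 1 to 19 were read as 1-based closed intervals, and the partner with the longest overlap was used. In all groupings into equal parts, peaks of the same value were ordered by genome position. Intervals are Wilson for shares and exact for tags and their ratios; they hold counting error only. Overlap and distance steps were tested on simulated data. The software was Python (3.11.15) with numpy (version 2.4.6), pandas (version 2.3.3), SciPy (version 1.17.1) and, for plots, matplotlib (version 3.10.9).

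The regions and comparisons were chosen with earlier results of these data known. The groupings by local level, local fold and fold over knockout, the near-to-far ratios, the FCCP ratios and the chromosome 1 stretch were added after values had been seen. Named regions are, in each BAT list, the 3 tallest and the 3 of highest fold over knockout met by both cell lists, the 2 tallest met by the untreated list alone and by FCCP alone, the 2 met by both that lie closest to the other BAT list, and those next to the limit. Alternatives are listed in the closing section. Genes and sequences are not given, since no mm8 genome or annotation was used here.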

Additional observations from a re-analysis of the deposited data

How the results depend on the processing

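Overlap of at least 50% of the shorter peak gave shares of eligible peaks meeting a cell peak of 4.60% in females and 4.29% in males, with 20.2% and 22.7% of regions met by both cell lists. Asking 8-fold over the local region of the cell peaks left 72 female and 175 male regions (0.418% and 0.458%; 16.7% and 28.6% met by both). BAT peaks at least 4-fold over knockout gave a male share of 4.60%, and 20.6% and 23.3% met by both. Without the tag limit the female share was 5.74%, with 29.1% met by both. With the FCCP list cut to the length of the untreated one the shares were 4.71% and 4.56%. With equal numbers of BAT peaks, 32.6% of male regions were met by both. Under the other settings (centres within 200 bp, a limit of 10 normalized tags, peaks of both BAT lists kept, and, added after the data were seen, no chromosome 1 stretch) these shares stayed within their Wilson intervals. The ratio of median folds over knockout, regions to other peaks, was 0.922 in females and 0.978 in males, and 1.00 or below in all settings. No paired analysis was possible because each condition has 1 list. Depth limits every height: a median region rests on 13.0 tags.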
